A study of Homo sapiens with 4 samples.

Results

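RNA-binding proteins that act on elements in the 3′ untranslated regions of mRNAs are described here, at the level of the mRNAs that encode them. The set was defined by gene symbol and holds 8 genes of the 26830 genes in the deposited table: ZFP36, ZFP36L1 and ZFP36L2, the Roquin genes RC3H1 and RC3H2, the Pumilio gene PUM2, ELAVL1 and KHSRP. All 8 were found, and all 8 averaged 1 TPM or more across the 4 libraries, the filter that left 10415 genes for testing. Of the 8, ZFP36 and RC3H1 had a mean input TPM under 1, so they passed through their Flag-RIP values.

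The study asked which transcripts the RNA-binding protein QKI7, an isoform of QKI, holds in U2OS, a human osteosarcoma cell line. Flag-RIP (n = 2 libraries) is RNA recovered with a Flag antibody from U2OS cells that carry a lentiviral construct for QKI7 with 3 Flag tags, and input (n = 2 libraries) is RNA of the same kind of cells with no antibody step. Cells were selected as a GFP-positive pool, received no further treatment, and ultraviolet cross-linking, lysis and sonication preceded the precipitation. All 4 libraries thus come from cells with forced QKI7 expression, and cells without it or a precipitation with another antibody were not analysed here. The labels do not say whether replicates 1 and 2 came from separate cultures, and the spread that the p-values rest on may therefore be technical.

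The proteins of this set read AU-rich, stem-loop or Pumilio elements in mRNA and set how long the mRNA lasts. The ZFP36 (tristetraprolin) family and the Roquins recruit the CCR4-NOT deadenylase, which shortens the poly(A) tail before decapping or exosomal decay. PUM2 also recruits this deadenylase, KHSRP promotes decay of AU-rich mRNAs, and ELAVL1 (HuR) binds similar elements and is best known for stabilising its targets. QKI belongs to the STAR family of RNA-binding proteins and likewise binds elements in 3′ untranslated regions.

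Values are TPM, a length-normalised share of a library, so levels can be set against each other between genes, but read depth is unknown. The signal recognition particle RNAs RN7SL1 and RN7SL2 took 39.8% and 43.4% of the Flag-RIP libraries, against 84.6% and 79.7% of the inputs, and the ERCC spike-ins, synthetic control RNAs, took 18.9% and 25.6%, against 2.78% and 3.89%. The TPM of a typical gene was also higher in Flag-RIP, with a median of 5.72 and 5.37 TPM over the tested genes in Flag-RIP and 1.29 and 2.01 TPM in input. Values called scaled TPM below are those of libraries multiplied to a common median, and changes are differences of log2(scaled TPM + 1), Flag-RIP minus input, except where a value is given as deposited or by spike-in. Changes on this scale are relative to the median gene and understate those of low genes. Of 10 osteoblast lineage markers, RUNX2, SPARC and COL1A1 passed the filter. RUNX2, at 0.61 and 1.12 TPM in input, passed through its Flag-RIP values of 6.52 and 4.05 TPM. Of the 10, 5 stayed below 0.5 TPM in every library, among them IBSP, which was listed at 0. The summed marker level was 605 and 399 TPM in Flag-RIP and 90.0 and 132 TPM in input. SPARC, with a change of 1.38 (limma adjusted p = 0.017), made up 481 and 277 TPM of this sum in Flag-RIP, while COL1A1, which made up 53.8 and 83.7 TPM of it in input, had a change of -0.99 (limma adjusted p = 0.011). Of 8 markers of blood, liver, epithelial, endothelial and neural crest cells, none passed the filter, with a summed level of 3.42 and 2.49 TPM in Flag-RIP and 0.36 and 0.51 TPM in input. The endothelial marker CDH5 made up 2.19 and 1.23 TPM of this sum in Flag-RIP. It averaged 0.94 TPM over the 4 libraries, just under the filter.

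Relative to the median gene, 4 of the 8 mRNAs were higher in Flag-RIP (ZFP36L1, ZFP36, PUM2 and RC3H1) and 0 were lower, while ELAVL1, ZFP36L2, RC3H2 and KHSRP did not pass (limma, adjusted p under the 0.05 threshold). Over all tested genes, 20.2% were higher and 25.5% lower by the same rule. ZFP36 and RC3H1 are the genes that passed the filter through their Flag-RIP values, and without them 2 of 6 were higher and 0 lower. The shares over all tested genes include genes that passed in this way, so they are no matched background for the 6. The median change of the 8, with ZFP36 and RC3H1 included, was 0.43, against -0.02 over all tested genes. Both Flag-RIP values lay above both inputs in 5 of the 8 (38.2% of tested genes) and below them in 1 (41.5%), and the groups overlapped in 2. ZFP36 and RC3H1 were among the 5. As deposited, both Flag-RIP values lay above both inputs in all 8 (96.7% of tested genes), and all 8 passed as higher (92.3% of tested genes, with 0.317% lower), so the deposited direction is shared with nearly the whole table. Scaled to the spike-ins, none of the 8 was higher and 3 were lower (ZFP36L2, RC3H2 and KHSRP), against 3.12% and 60.9% of tested genes.

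**Figure D1:**
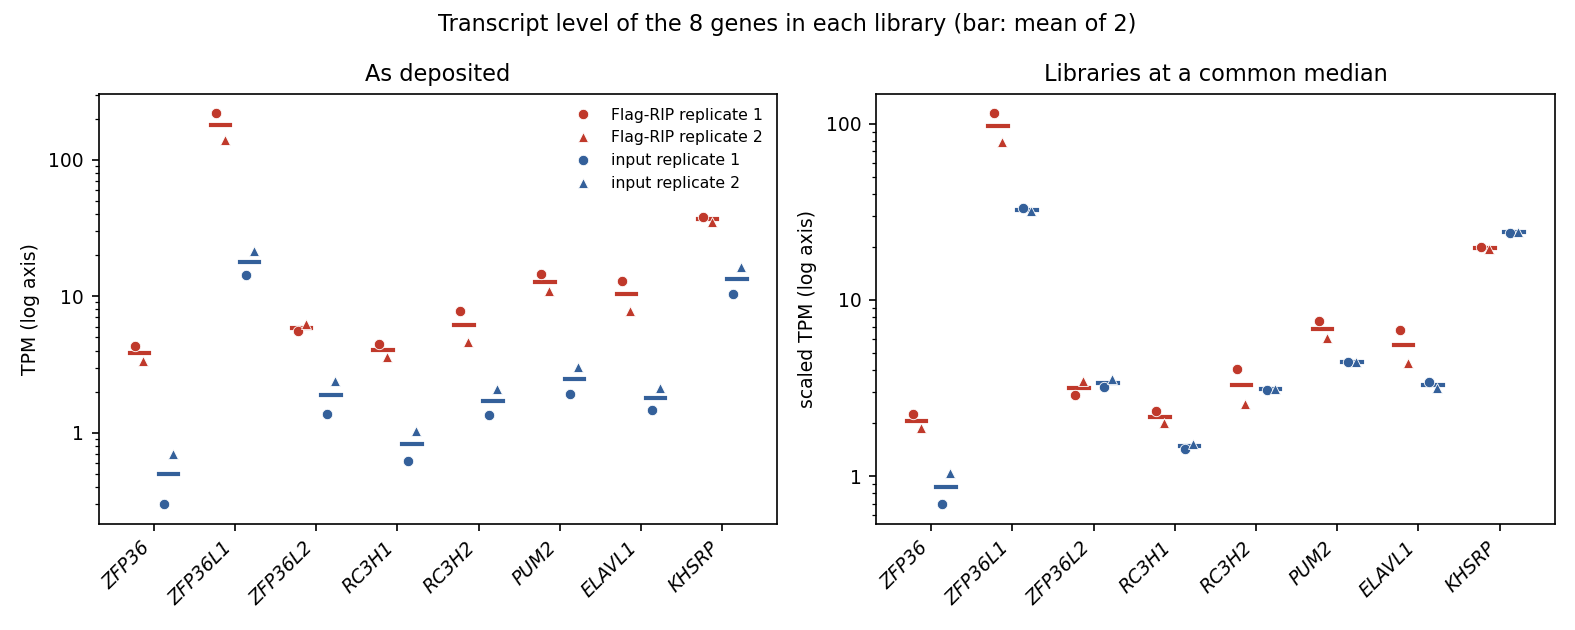
Transcript level of the 8 genes in each library on log axes, as deposited (left, TPM) and with libraries at a common median (right, scaled TPM), with Flag-RIP in red, input in blue, circles for replicate 1, triangles for replicate 2 and bars for the mean of 2. As deposited all 8 genes lie higher in Flag-RIP, and at a common median ZFP36L1 stands out at 115 and 78.1 in Flag-RIP, against 33.1 and 31.8 in input.

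The ZFP36 family holds CCCH zinc finger proteins that bind AU-rich elements, and ZFP36L1 and ZFP36 passed the test while ZFP36L2 did not. ZFP36L1, which restrains growth and differentiation programmes by destabilising AU-rich mRNAs, had 219.54 and 140.45 TPM in the Flag-RIP libraries, against 14.29 and 21.37 TPM in the inputs. It was high in both Flag-RIP libraries, and the groups did not overlap. In scaled TPM it averaged 96.4 ± 25.8 in Flag-RIP and 32.4 ± 0.94 in input (SD, n = 2 each), a ratio of 2.97. The ratio ranged from 2.36 to 3.61 over the 4 pairs of a Flag-RIP and an input library. Its change was 1.52 (SE 0.23, limma adjusted p = 0.0093), and 1.12% of tested genes had a larger one. As deposited the change was 3.26 (SE 0.32, limma adjusted p = 8.8e-23). The p-values as deposited, here and for the other genes, rest on a variance trend over all genes and not on each gene's own replicates. With any 1 of the 4 libraries left out, the change of ZFP36L1 was 1.23 to 1.79. Such a fit leaves 1 library in a group, so its replicate spread comes from the other group alone. Scaled to the spike-ins ZFP36L1 was not called, with a change of 0.58 (limma adjusted p = 0.18).

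ZFP36, an immediate-early gene and the founding member of the family, was the least abundant of the 8. It had 4.33 and 3.37 TPM in Flag-RIP, against 0.30 and 0.70 TPM in input, with no overlap. Its scaled TPM averaged 2.07 ± 0.27 in Flag-RIP and 0.87 ± 0.24 in input (SD, n = 2 each), a ratio of 2.38. The change was 0.72 (SE 0.13, limma adjusted p = 0.012). It was not called without Flag-RIP replicate 1 (0.57, limma adjusted p = 0.058), with no filter (0.46, limma adjusted p = 0.0998) or when scaled to the spike-ins (0.18, limma adjusted p = 0.48). The inputs of this gene are low, at 0.695 and 1.04 scaled TPM, and no other member had inputs as far apart as a ratio at a common median.

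ZFP36L2, the family member best known for its role in oocytes and lymphocytes, did not pass. It had 5.52 and 6.21 TPM in Flag-RIP, against 1.38 and 2.40 TPM in input. At a common median these became 2.88 and 3.46 in Flag-RIP, against 3.20 and 3.57 in input, so the groups overlapped. The change was -0.07 (SE 0.11, limma adjusted p = 0.60), and 55.0% of tested genes had a larger one. Its sign depended on the scale, with 1.27 as deposited (limma adjusted p = 3.5e-05) and -0.81 when scaled to the spike-ins (limma adjusted p = 0.0037). With no filter it was called lower, at -0.43 (limma adjusted p = 0.040).

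Ratios of TPM between genes of the same library do not depend on how libraries are scaled. ZFP36L1 exceeded ZFP36L2 by 39.8 and 22.6 times in the Flag-RIP libraries, against 10.4 and 8.90 times in the inputs, so the ratio was 3.12 times as high in Flag-RIP. The ratio of ZFP36 to ZFP36L2 was 0.784 and 0.543 in Flag-RIP, against 0.217 and 0.292 in input, 2.59 times as high in Flag-RIP. Neither ratio overlapped between the groups. The ratio of ZFP36L1 to ZFP36 was 50.7 and 41.7 in Flag-RIP, against 47.6 and 30.5 in input, and it did overlap. With 2 libraries a group, an exact two-sided permutation test cannot go below p = 0.333, which was the value for each of the ratios to ZFP36L2, while ZFP36L1 over ZFP36 had p = 0.667. As a share of the summed TPM of the family, ZFP36L1 made up 95.7% and 93.6% in Flag-RIP, against 89.5% and 87.3% in input. ZFP36L2 made up 2.41% and 4.14% in Flag-RIP, against 8.64% and 9.81% in input. The 5 pairs of genes compared by ratio were chosen after the values had been seen. Some of these ratios involve ZFP36 or RC3H1, with a mean input of 0.50 and 0.825 TPM. Both genes passed the filter through their Flag-RIP values.

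The Roquins are RING and CCCH zinc finger proteins that bind stem-loops in mRNAs of immune regulators, and are known for overlapping functions. RC3H1 had 4.48 and 3.60 TPM in Flag-RIP, against 0.62 and 1.03 TPM in input. At a common median it had 2.34 and 2.00 in Flag-RIP and 1.44 and 1.53 in input, still without overlap, and a ratio of the means of 1.46. Its change was 0.35 (SE 0.09, limma adjusted p = 0.032). That call was lost without Flag-RIP replicate 1 (0.25, limma adjusted p = 0.085), without input replicate 1 (0.35, 0.17) and without input replicate 2 (0.40, 0.099). It was also lost when the shift to a common median followed the log (0.15, limma adjusted p = 0.31), on the spike-in scale (-0.25, 0.33) and with no filter (0.05, 0.77).

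RC3H2 had 7.74 and 4.63 TPM in Flag-RIP, against 1.34 and 2.10 TPM in input. In scaled TPM, Flag-RIP replicate 1 was above both inputs and replicate 2 below them, with 4.04 and 2.58 in Flag-RIP, against 3.10 and 3.12 in input. The change was 0.05 (SE 0.17, limma adjusted p = 0.84), and it turned to -0.19 without Flag-RIP replicate 1 and to -0.66 when scaled to the spike-ins (limma adjusted p = 0.017). The ratio of RC3H1 to RC3H2 was 0.579 and 0.778 in Flag-RIP, against 0.463 and 0.490 in input, 1.41 times as high in Flag-RIP (exact two-sided permutation p = 0.333). RC3H1 was the less abundant of the pair in every library. The snoRNA gene SNORD90 lies within the span of RC3H2 and was listed at 0 in all 4 libraries.

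PUM2 is a Pumilio protein that binds a UGUA-containing element and represses its targets through deadenylation. It had 14.51 and 11.0 TPM in Flag-RIP, against 1.93 and 3.01 TPM in input, and it was the third most abundant of the 8 in every library. In scaled TPM it averaged 6.85 ± 1.03 in Flag-RIP and 4.47 ± 0.0035 in input (SD, n = 2 each), a ratio of 1.53. The change was 0.51 (SE 0.12, limma adjusted p = 0.023). It was not called without Flag-RIP replicate 1 (0.36, limma adjusted p = 0.068), without input replicate 1 (0.53, 0.088) or without input replicate 2 (0.52, 0.067), with no filter (0.12, 0.61) or when scaled to the spike-ins (-0.29, 0.36).

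ELAVL1 had 12.95 and 7.85 TPM in Flag-RIP, against 1.47 and 2.14 TPM in input. In scaled TPM it had 6.76 and 4.37 in Flag-RIP, against 3.40 and 3.18 in input, so the groups did not overlap, but the Flag-RIP replicates differed by more than the inputs. Its change of 0.59 lay just outside the threshold (SE 0.19, limma adjusted p = 0.051), and RC3H1, with a smaller change, was the member just inside it. ELAVL1 was called without Flag-RIP replicate 2 (0.82, limma adjusted p = 0.023), with a pseudocount of 0.1 (0.71, 0.045), with a filter at 5 TPM (0.76, 0.012), as deposited (2.00, 6.5e-10) and when the shift to a common median followed the log (0.68, 0.020). When scaled to the spike-ins the change was -0.17 (limma adjusted p = 0.57).

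KHSRP, a KH-domain protein that recruits decay enzymes to AU-rich mRNAs, had 38.33 and 35.03 TPM in Flag-RIP, against 10.38 and 16.34 TPM in input. It was the only one of the 8 whose scaled TPM was lower in both Flag-RIP libraries than in both inputs, with 20.0 and 19.5 in Flag-RIP, against 24.0 and 24.3 in input. The change was -0.28 and did not pass (SE 0.12, limma adjusted p = 0.12), and 69.8% of tested genes had a larger one. The sign turned with the scaling, to 1.42 as deposited (limma adjusted p = 2.7e-05), 0.10 when the shift to a common median followed the log (0.60) and 0.26 without the 20 most abundant rows (0.35), against -1.19 when scaled to the spike-ins (0.0018). With no filter KHSRP was called lower, at -0.73 (limma adjusted p = 0.017). ELAVL1 and KHSRP both bind AU-rich elements with largely opposed effects, and the ratio of their mRNAs, ELAVL1 over KHSRP, was 0.338 and 0.224 in Flag-RIP, against 0.142 and 0.131 in input. That ratio was 2.02 times as high in Flag-RIP, with no overlap (exact two-sided permutation p = 0.333).

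**Figure D2:**
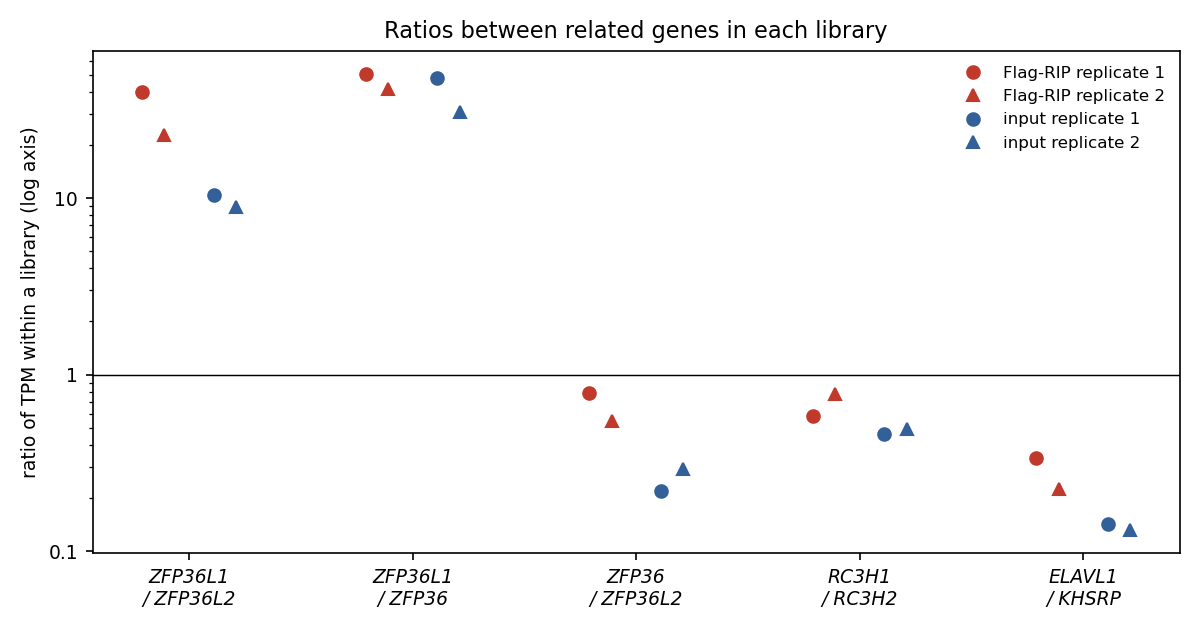
Ratio of TPM between related genes within each library on a log axis, with Flag-RIP in red left of input in blue, circles for replicate 1 and triangles for replicate 2. The ratios to ZFP36L2 and the ratio of ELAVL1 to KHSRP lie higher in both Flag-RIP libraries than in both inputs, and ZFP36L1 over ZFP36 overlaps between the groups.

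**Figure D3:**
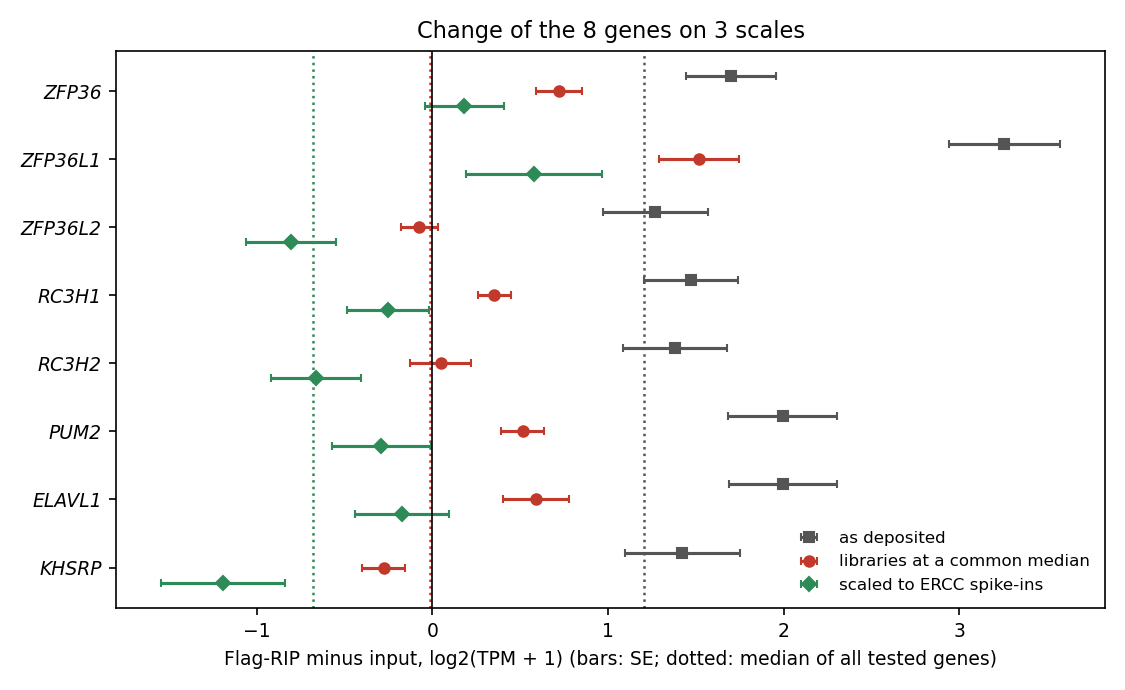
Change of each gene, Flag-RIP minus input in log2(TPM + 1), as deposited (grey squares), at a common library median (red circles) and scaled to the ERCC spike-ins (green diamonds), with SE bars and the median of all tested genes dotted. ZFP36L1 has the most positive change of the 8 on each scale, at 3.26, 1.52 and 0.58. Scaled to the spike-ins, KHSRP at -1.19, ZFP36L2 at -0.81 and RC3H2 at -0.66 are larger in size. The all-gene median moves between 1.2, -0.02 and -0.68.

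The scaling moved all 8 genes together with the rest of the table. The median change of the 8 was 1.58 as deposited and -0.27 when scaled to the spike-ins, with ZFP36 and RC3H1 included. Over all tested genes the medians were 1.2 and -0.68. In plain TPM, the ratio of Flag-RIP to input means was 10.1 for ZFP36L1, 7.70 for ZFP36, 5.76 for ELAVL1, 5.16 for PUM2 and 4.90 for RC3H1. It was 3.60 for RC3H2, 3.10 for ZFP36L2 and 2.75 for KHSRP, with 3.31 as the median of this ratio among tested genes. Flag-RIP replicate 1 had the higher scaled TPM of the Flag-RIP pair in 7 of the 8, with ZFP36L2 the exception, against 47.5% of tested genes.

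**Figure D4:**
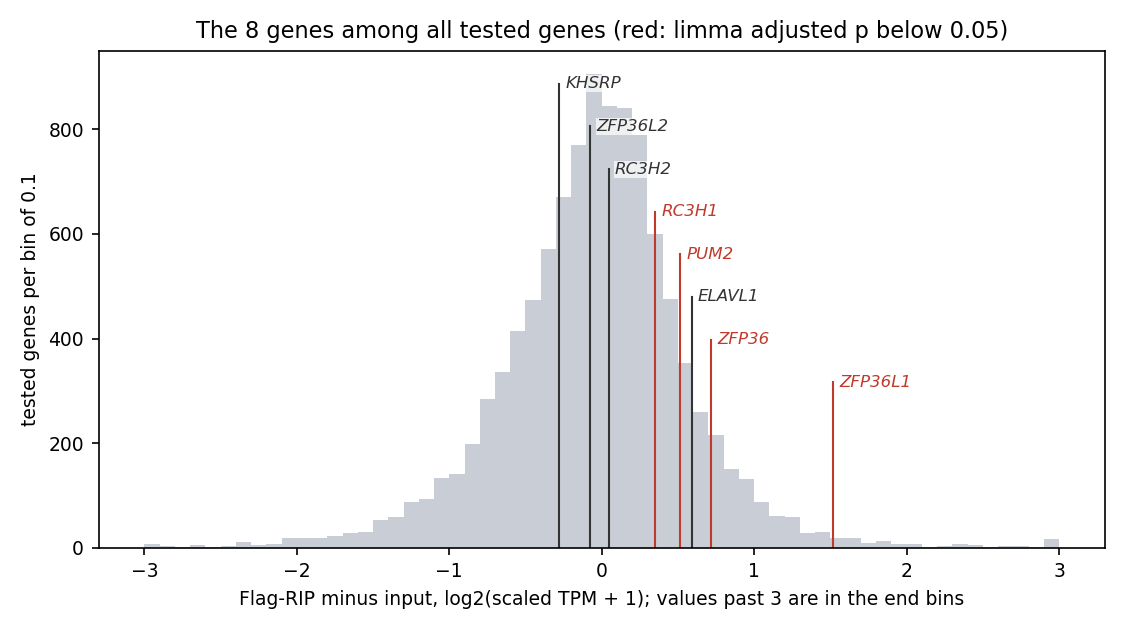
Histogram of the change, Flag-RIP minus input in log2(scaled TPM + 1), over all 10415 tested genes in bins of 0.1, with a line at each of the 8 genes (red where limma's adjusted p was below 0.05). ZFP36L1 lies far in the right tail at 1.52, and KHSRP is the lowest of the 8 at -0.28.

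In order of level, ZFP36L1 was the most abundant of the 8 in every library, followed by KHSRP and PUM2. In Flag-RIP, ZFP36L1 averaged 180.0 TPM and KHSRP 36.7 TPM with separate ranges, and PUM2 and ELAVL1 (12.8 and 10.4 TPM), RC3H2 and ZFP36L2 (6.19 and 5.87 TPM) and RC3H1 and ZFP36 (4.04 and 3.85 TPM) were neighbours whose ranges overlapped. In input, the ranges of ZFP36L1 and KHSRP overlapped (17.8 and 13.4 TPM), although ZFP36L1 was the higher in each library. The inputs of PUM2, ZFP36L2, ELAVL1 and RC3H2 also formed a run of overlapping neighbours from 2.47 to 1.72 TPM, with RC3H1 (0.825 TPM) and ZFP36 (0.50 TPM) below it. The 8 mRNAs together had 307 and 212 TPM in Flag-RIP, against 31.7 and 49.1 TPM in input. ZFP36L1 made up 71.4% and 66.2% of this sum in Flag-RIP, against 45.1% and 43.5% in input.

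QKI, the gene of the tagged protein, had 60.72 and 41.99 TPM in Flag-RIP, against 3.83 and 5.85 TPM in input, where reads of transgene and endogenous gene cannot be told apart. Its change of 1.53 (SE 0.17, limma adjusted p = 0.0087) was close in size to that of ZFP36L1, and the difference between the 2 genes was not tested. Among all other tested genes, those whose scaled levels were nearest to ZFP36L1 over the 4 libraries (Euclidean distance in log2) were RHOA at 0.54, SRRM2 at 0.73 and MLF2 at 0.91. RHOA, a small GTPase of the actin cytoskeleton, had 192.44 and 108.45 TPM in Flag-RIP, against 12.33 and 17.53 TPM in input. SRRM2, a spliceosome-associated protein, had 236.45 and 215.49 TPM in Flag-RIP, against 16.12 and 27.47 TPM in input. MLF2 had 139.49 and 95.45 TPM in Flag-RIP, against 16.39 and 25.63 TPM in input. Its change was 0.70, smaller than the 1.48 of RHOA and the 1.62 of SRRM2.

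The genes lie apart in the genome (GRCh38.p14 coordinates of the RefSeq table). ZFP36L1 lies on chromosome 14 from 68787655 to 68796243, ZFP36L2 on chromosome 2 from 43222402 to 43226606 and ZFP36 on chromosome 19 from 39406847 to 39409407. RC3H1 lies on chromosome 1 from 173931084 to 174022357 and RC3H2 on chromosome 9 from 122844556 to 122905359. PUM2 lies on chromosome 2 from 20248691 to 20352253, ELAVL1 on chromosome 19 from 7958573 to 8005641 and KHSRP on chromosome 19 from 6413102 to 6424811. Their spans run from 2561 bp for ZFP36 to 103563 bp for PUM2. Values are per gene, so the part of each mRNA that was recovered, its 3′ untranslated region included, is not known.

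The machinery that these proteins work with was described with 4 lists of 91 genes, of which 87 were in the table and 73 passed the filter, 18 of them with a mean input TPM under 1. Over the 73, 19 (26.0%) were higher and 13 (17.8%) lower at a common median, against 20.2% and 25.5% of all tested genes. Of the 19 higher genes, 9 were among those with a mean input TPM under 1, which passed the filter through their Flag-RIP values, and none of the 13 lower genes was. Without these genes 10 of 55 were higher and 13 lower. The shares of all tested genes still include genes of this kind, so they are no matched background for the 55. Of 24 other 3′ untranslated region binding proteins that passed, 9 (37.5%) were higher and 1 (4.17%) lower. Their median change was 0.20, and 5 of the 9 had a mean input TPM under 1. MSI1, a Musashi protein that represses translation, rose most, with 48.29 and 23.08 TPM in Flag-RIP, against 1.14 and 2.20 TPM in input, and a change of 2.27 (SE 0.31, limma adjusted p = 0.0091). PCBP1, a poly(C)-binding protein, fell by 0.63 (limma adjusted p = 0.017), and the most abundant, the cold-shock protein gene YBX3, had -0.13 (limma adjusted p = 0.70).

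Of 16 deadenylation genes that passed, 6 (37.5%) were higher and 1 (6.25%) lower, against 20.2% and 25.5% of all tested genes. Their median change was 0.23, and 2 of the 6 had a mean input TPM under 1. TOB1, one of these and an adaptor that brings the deadenylase to mRNAs, rose by 0.72 (limma adjusted p = 0.023), with 6.98 and 4.23 TPM in Flag-RIP, against 0.56 and 1.01 TPM in input. CNOT11, a subunit of CCR4-NOT, fell by 0.32 (limma adjusted p = 0.032), and its scaffold CNOT1, the most abundant of the list, had -0.22 (limma adjusted p = 0.12).

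The lists of decapping and exosome genes had medians below that of all tested genes, of which 20.2% were higher and 25.5% lower. Of 15 genes of decapping and 5′ decay, 2 (13.3%) were higher and 5 (33.3%) lower, with a median of -0.10. Of the 2 higher genes, 1 had a mean input TPM under 1. Among the 12 genes with a mean input TPM of 1 or more, 1 was higher and 5 lower. The helicase gene DDX6 rose by 0.52 (limma adjusted p = 0.011), LSM7, a subunit of the Lsm ring, fell by 1.57 (limma adjusted p = 0.012), and LSM14B, the most abundant, had -0.02 (limma adjusted p = 0.89). Of 18 genes of the exosome and 3′ decay, 2 (11.1%) were higher and 6 (33.3%) lower, with a median of -0.21. Among the 16 of them with a mean input TPM of 1 or more, 1 was higher and 6 lower. ZCCHC8, a subunit of the nuclear exosome targeting complex, rose by 0.55 (limma adjusted p = 0.010), but had a mean input TPM of 0.55 and passed the filter through its Flag-RIP values. EXOSC4, a subunit of the exosome core, fell by 1.17 (limma adjusted p = 0.0090), and EXOSC6, the most abundant, had 0.34 (limma adjusted p = 0.097). As deposited, 68 of the 73 (93.2%) were higher and 0 lower, against 92.3% and 0.317% of all tested genes.

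**Figure D5:**
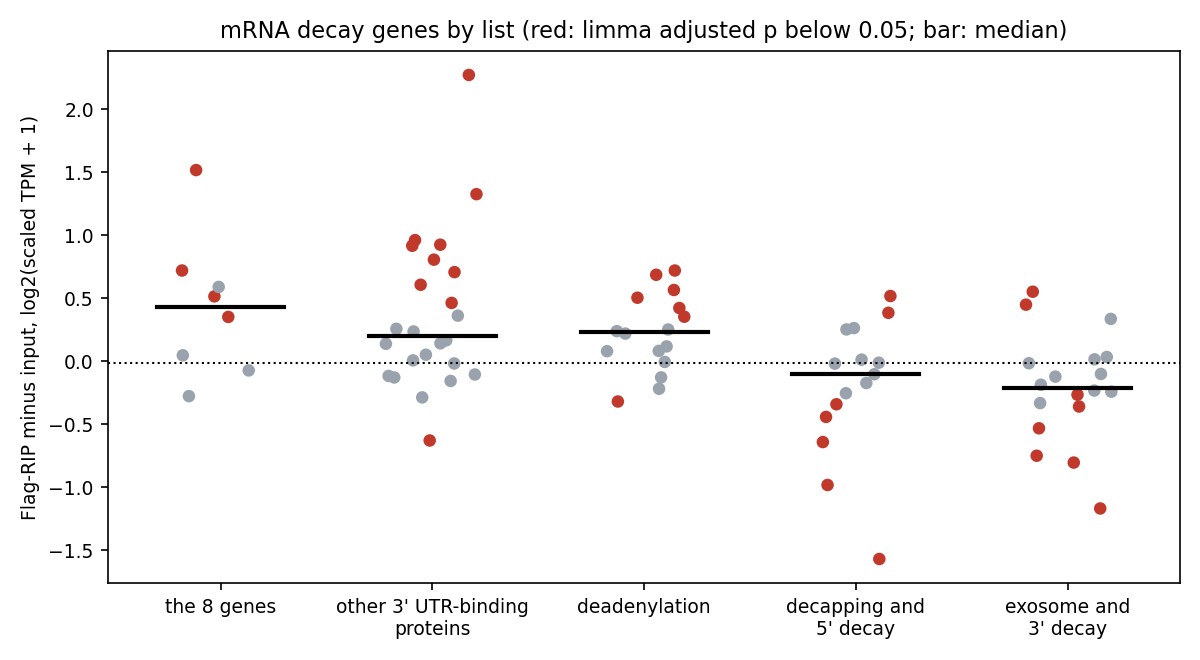
Change, Flag-RIP minus input in log2(scaled TPM + 1), of each tested gene of the 8 and of the 4 lists of mRNA decay genes, with red points below a limma adjusted p of 0.05, bars at list medians and the all-gene median dotted. List medians run from 0.43 for the 8 genes to -0.21 for the exosome list, and each list overlaps the others. Each median includes genes that passed the filter through their Flag-RIP values.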

How the data were processed

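The authors deposited 1 table of TPM values with 1 column per library and ERCC spike-in rows. STAR, RSEM (version 1.2.31) and the GRCh38 build are named in the submitters' processing notes. Which annotation, filters and strand setting were used is not stated there. Read depth cannot be had from TPM, so no counting interval is given. From the table, genes averaging 1 TPM or more were kept, spike-in rows were left out, and each library was multiplied to a common median (2.99 TPM). Flag-RIP was compared with input on log2(scaled TPM + 1) with limma (version 3.58.1, under R 4.3.3; lmFit, eBayes with trend, two-sided, Benjamini-Hochberg over 10415 genes). Scaling before the pseudocount was chosen because shifting log2(TPM + 1) values makes low genes look lower. Fits as deposited and scaled to the spike-ins stand beside it. In the fit as deposited limma estimated an infinite prior, and its p-values rest on the variance trend. The prior of the spike-in fit is not given here, and its p-values may rest on the trend too. In that fit RC3H2 and ZFP36L2 had SEs of 0.254 and 0.255, against 0.173 and 0.108 at a common median. The procedure was tested on simulated data. Same-numbered libraries had a correlation of deviations of -0.098 and were not treated as pairs.

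The 8 genes, the lists and the scaling were chosen with earlier results of these data known. Named besides the 8 were QKI, the called gene with the largest change in each direction and the most abundant gene of each list, and the 3 genes nearest to the member with the largest change. The markers were named in addition. No transcript sequences were used here. The RefSeq gene table (GRCh38.p14) served to match older symbols. A gene of the lists is not reported here.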

Additional observations from a re-analysis of the deposited data

How the results depend on the processing

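The direction of the 8 genes is relative to a scale, and TPM does not settle which scale is right. Of the 8, 8 were higher as deposited, 0 higher and 3 lower when scaled to the spike-ins, 1 higher (ZFP36L1) and 2 lower (ZFP36L2 and KHSRP) with no filter, and 1 to 5 higher when 1 library was left out, against 4 and 0. The genes called higher and lower over the whole table were 9608 and 33 as deposited, 4449 and 680 without the 20 most abundant rows, 325 and 6339 when scaled to the spike-ins, 1033 and 4627 with no filter, and 1094 and 1213 with the filter at 5 TPM. They ranged from 859 to 2046 and from 605 to 2073 with 1 library left out, against 2101 and 2660. With no filter the common median rests on many low genes, and with the filter at 5 TPM fewer genes were tested. With 1 library left out, the replicate spread comes from the other group alone, so calls from such fits carry less weight. Otherwise the cause was not tested.

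Changes that turned sign were those of ZFP36L2 (1.27 as deposited, 0.44 without the 20 most abundant rows, 0.022 without Flag-RIP replicate 1, and -0.16 to 0.022 with 1 library left out) and KHSRP (1.42 as deposited, 0.10 with the shift after the log and 0.26 without the 20 most abundant rows). RC3H2 turned to -0.66 when scaled to the spike-ins, -0.31 with no filter and -0.19 without Flag-RIP replicate 1 (-0.19 to 0.28 with 1 library left out). Scaled to the spike-ins, RC3H1 was at -0.25, PUM2 at -0.29 and ELAVL1 at -0.17. ZFP36L1 stayed above 0 in all 14 alternatives, and ZFP36 in all 13 it was tested in. Neither was called when scaled to the spike-ins (limma adjusted p = 0.18 and 0.48). ZFP36 passed the filter through its Flag-RIP values, so its direction is tied to that filter. With no filter ZFP36 was not called (0.46, limma adjusted p = 0.0998). With the replicate number as a block, 4 of the 8 were higher and 0 lower, and 1848 and 2142 genes over the table. ELAVL1 then passed (limma adjusted p = 0.036) and RC3H1 did not (limma adjusted p = 0.054). The labels do not say that the numbers pair the libraries.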

Other observations

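Some other families of 3′ untranslated region binding proteins also held paralogs of which only some passed the test, while in others all or none did. The genes named here were chosen after their values had been seen. Of the TNRC6 scaffolds, which link Argonaute proteins to the deadenylase, TNRC6A had a change of 1.33 (SE 0.11, limma adjusted p = 0.0077) and TNRC6C of 0.96 (limma adjusted p = 0.0084), whereas TNRC6B had 0.24 (limma adjusted p = 0.12). TNRC6A had 10.0 and 8.50 scaled TPM in Flag-RIP, against 3.08 and 3.09 in input. TNRC6B had 3.17 and 2.56 scaled TPM in Flag-RIP, against 2.22 and 2.32 in input. TIA1, a stress granule protein that binds U-rich elements, had a change of 0.81 (limma adjusted p = 0.0084), whereas its paralog TIAL1 had 0.05 (limma adjusted p = 0.69). TIA1 had 2.63 and 2.90 scaled TPM in Flag-RIP, against 1.09 and 1.22 in input. The Argonaute genes AGO1, AGO2 and AGO3 had changes of -0.16, 0.01 and 0.14, and none passed (limma adjusted p of 0.21 to 0.97). AGO4 did not pass the filter. Both Musashi genes passed, MSI1 at 2.27 and MSI2 at 0.92 (limma adjusted p = 0.0091 and 0.046). So did SAMD4A at 0.46 and SAMD4B at 0.61 (limma adjusted p = 0.020 and 0.042). TIA1, TNRC6C and MSI2 had a mean input TPM of 0.645, 0.63 and 0.74 and passed the filter of 1 TPM through their Flag-RIP values. The differences between paralogs were not tested.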
